A study of Mus musculus with 22 samples.

Results

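The genes described are the Wnt ligands and the proteins that carry their signal, 45 genes of the 26182 with a curated RefSeq transcript. They were chosen by name, and their CpG positions by place: a promoter position lies within 2 kb of a transcription start site (TSS), and a gene body position lies inside the gene and farther from every TSS of that gene. Of the 1140639 positions covered in all 22 samples, 3760 were promoter positions of these genes, out of 694870 promoter positions in all, and 1862 were gene body positions of these genes. DNA methylation had been measured by enhanced reduced representation bisulphite sequencing (ERRBS), which reads CpGs near CCGG sites, in bulk mammary tissue of PyMT mice and of FVB controls at weeks 6, 8, 10 and 12. The labels call the PyMT glands of week 6 hyperplasia, those of week 8 adenoma/MIN, those of week 10 early carcinoma and those of week 12 late carcinoma.

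The PyMT mice were F1 females heterozygous for a polyoma middle T transgene, from FVB/N males carrying MMTV-PyVT crossed with FVB females, and the MMTV promoter drives the transgene mainly in mammary epithelium. The controls were FVB females of the same ages without the transgene, so both kinds share the FVB background. Weeks 6 and 12 had 2 PyMT samples each, weeks 8 and 10 had 3 each, and every week had 3 FVB samples. Each sample is a piece of whole tissue, tumor or gland, that was frozen before DNA extraction, and the labels list every sample as separate within its group.

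Wnt ligands bind Frizzled receptors and the co-receptors Lrp5 and Lrp6 at the cell surface, which blocks the complex of Axin, Apc and Gsk3 that marks beta-catenin for destruction, and beta-catenin then acts with the Tcf and Lef factors in the nucleus. R-spondins raise the response by removing the ubiquitin ligases Rnf43 and Znrf3 from the membrane through the receptors Lgr4, Lgr5 and Lgr6. In the mammary gland the pathway takes part in the growth of the embryonic bud, in ductal side branching and in the upkeep of stem cells, and MMTV insertions beside Wnt genes are a classical cause of mouse mammary tumors.

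The stretches of DNA with the most differentially methylated cytosines (DMCs) are shown first, since they mark where in these genes the called positions lay together. A DMC has a q-value under 0.01 in a logistic test of reads and a difference of at least 10 percentage points (points hereafter) between PyMT and FVB of the same week, and a run joins DMCs of 1 direction with gaps of at most 100 bp. In each sequence the capitals mark the CpGs with a DMC at any week. All are written on the plus strand of GRCm38/mm10, from the RefSeq genome, with up to 5 bases on each side. Introns and exons are those of curated transcripts, and for the Wnt5a and Wnt10b promoters only the longest part outside untranslated exons of any transcript, predicted ones included, is shown.
Wnt5a promoter run, higher in PyMT, intron, chr14:28509519-28509548: ctctCGggactctcCGgcCGatctccttgg
Wnt10b promoter run, higher in PyMT, intron, gene on the minus strand, chr15:98777206-98777272: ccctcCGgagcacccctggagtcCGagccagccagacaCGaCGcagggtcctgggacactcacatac
Tcf7l2 run at its inner TSS, higher in PyMT, intron, chr19:55896672-55896800: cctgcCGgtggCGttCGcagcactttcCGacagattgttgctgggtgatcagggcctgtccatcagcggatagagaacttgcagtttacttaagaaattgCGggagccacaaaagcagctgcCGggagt
Wnt10a promoter run, lower in PyMT, coding exon, chr1:74793449-74793528: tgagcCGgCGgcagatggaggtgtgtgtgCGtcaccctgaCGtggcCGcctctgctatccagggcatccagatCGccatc
Wnt2 promoter run, higher in PyMT, upstream of curated transcripts, gene on the minus strand, chr6:18031460-18031546: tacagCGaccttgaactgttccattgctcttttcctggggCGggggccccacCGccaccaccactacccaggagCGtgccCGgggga
Lgr6 gene body run, higher in PyMT, coding exon, gene on the minus strand, chr1:134987590-134987754: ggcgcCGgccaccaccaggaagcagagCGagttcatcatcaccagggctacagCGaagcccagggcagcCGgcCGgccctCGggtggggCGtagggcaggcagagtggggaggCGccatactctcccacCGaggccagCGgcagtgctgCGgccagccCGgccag
Wnt10b gene body run, lower in PyMT, coding exon but for 1 intron position, gene on the minus strand, chr15:98774101-98774374: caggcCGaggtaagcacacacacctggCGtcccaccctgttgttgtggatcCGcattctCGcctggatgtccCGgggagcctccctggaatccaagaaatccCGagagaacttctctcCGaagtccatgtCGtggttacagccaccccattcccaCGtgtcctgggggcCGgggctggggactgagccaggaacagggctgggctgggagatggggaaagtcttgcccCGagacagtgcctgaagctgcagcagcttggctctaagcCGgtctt
Wnt5a gene body run, higher in PyMT, coding exon, chr14:28522570-28522720: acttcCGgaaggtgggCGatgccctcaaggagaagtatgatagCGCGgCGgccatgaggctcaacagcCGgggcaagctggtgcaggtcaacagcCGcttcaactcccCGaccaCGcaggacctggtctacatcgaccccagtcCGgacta
Each of these holds at least 1 CCGG, the site around which the method reads.

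The samples held 1314077 to 1435757 positions at a mean coverage of 60.2 to 79.2 reads. PyMT week 8 replicate 1 stood apart on chromosome X, with 1.05% as many reads there as on the autosomes against 1.93 to 2.24% in the other 21 samples and with a mean X methylation of 32.8% against 45.03 to 47.3%. FVB week 8 replicate 2 had the lowest mean correlation across positions with its own strain, 0.972. None of the 45 genes lies on chromosome X, and the counts of called promoters, gene bodies and promoter DMCs that use week 8 are given below with and without these samples.

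Promoters of 41 genes had positions covered in every sample, between 19 and 250 each. Those of Wnt8a, Wnt8b, Wnt16 and Rnf43 had 0, with 56 to 108 CpGs and 3 to 6 CCGG sites per window against 91 to 421 CpGs and 6 to 55 CCGG sites in the others. The 41 promoters were mostly unmethylated. Their mean level in FVB ranged from 0.0764% to 15.6% by gene, with a median of 0.897%, and their mean over genes was 1.31 to 1.51% in the FVB samples and 1.45 to 1.97% in the PyMT samples.

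Over the mean of the 4 weeks, 18 of the 41 promoters were higher in PyMT than in FVB and 6 were lower. The test was limma on the mean percent per promoter and sample, with Benjamini-Hochberg adjustment over all 16407 promoters tested and a call at an adjusted p under 0.05. Among all promoters 17.0% were called higher and 17.0% lower, so the share called higher was 43.9% in these genes against that background, and the share called lower was 14.6%. The median difference was 0.0822 points in these genes and -0.00815 points over all promoters, and all 24 called differences were under 5 points in size. Precision differed too, since these promoters held a median of 80 positions against 38 over all promoters. The samples are bulk tissue, in which a changed share of cell types and a change within cells cannot be told apart.

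Promoters of cell type markers also differed between the strains. Those of all 6 luminal epithelial markers tested were lower in PyMT, among them Elf5 by 26.7 points and Krt18 by 15.8 points, and the mean of the list was 3.73 to 6.25% in PyMT and 10.5 to 16.0% in FVB. Of the other lists, 2 of 2 basal markers were lower (mean of 30.4 to 36.5% in PyMT and 34.3 to 47.4% in FVB). Of 4 adipocyte markers, 2 were lower and 1 higher (42.0 to 50.0% against 50.9 to 58.8%). Of 3 endothelial markers, 2 were higher and 1 lower (49.8 to 55.9% against 36.7 to 44.97%). The 1 leukocyte marker covered was lower (48.5 to 75.8% against 68.7 to 76.9%), and 2 of 4 fibroblast markers were higher (3.02 to 7.43% against 1.68 to 5.38%). The part of these shifts in the values of the Wnt genes was not tested.

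**Figure D1:**
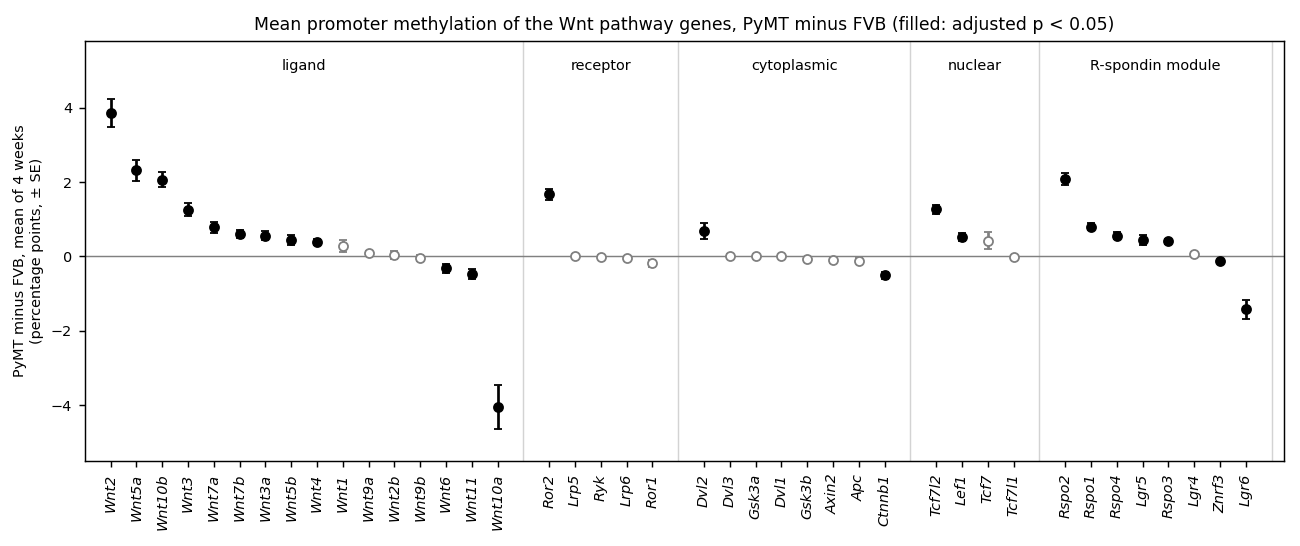
Difference in mean promoter methylation between PyMT and FVB over the 4 weeks (vertical axis, percentage points, bars are 1 standard error of the limma fit) for the 41 genes with a promoter value, grouped by role. Filled points have an adjusted p under 0.05: Wnt2, Wnt5a, Wnt10b and Rspo2 stand highest, Wnt10a stands lowest at -4.05, and the receptors and cytoplasmic proteins lie near 0 except Ror2, Dvl2 and Ctnnb1.

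The largest difference in each direction was that of a ligand. Of 16 ligand promoters tested, 9 were higher in PyMT (Wnt2, Wnt3, Wnt3a, Wnt4, Wnt5a, Wnt5b, Wnt7a, Wnt7b and Wnt10b), 3 were lower (Wnt6, Wnt10a and Wnt11) and 4 were not called. The differences ran from -4.05 to 3.87 points. The 9 higher ligands kept their direction under the 9 alternatives that recompute the gene means or the fit, but the calls of Wnt3a, Wnt4, Wnt7b and Wnt10b were lost when the window was narrowed to 500 bp around the TSS, and that of Wnt3a also with means weighted by reads. Within 500 bp the 3 lower ones had a higher mean in PyMT, by 0.967 points at Wnt10a, 0.428 at Wnt11 and only 0.00262 at Wnt6. Wnt6 was not called there (limma adjusted p = 0.993). Its call was also lost in the fit without trend, with at least 10 positions per gene and with means weighted by reads. The call of Wnt11 was lost with means weighted by reads and at a coverage of at least 20 reads.

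Wnt2 encodes a ligand that signals through beta-catenin. Its mean promoter methylation was lowest 1.4998%, median 4.83% and highest 7.49% in the 10 PyMT samples and lowest 0.307%, median 0.745% and highest 1.69% in the 12 FVB samples. The strains overlapped only through 1 of the week 6 PyMT samples, and every PyMT sample from week 8 on was above every FVB sample. The difference was 3.87 points (SE 0.373, limma adjusted p = 2.22e-07). It was spread over the window, with 44 of 45 positions higher in the PyMT mean than in the FVB mean.

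Wnt5a encodes a ligand that acts mostly without beta-catenin, through Ror2 and related receptors. Its promoter was at lowest 2.62%, median 6.04% and highest 6.92% in PyMT and at lowest 2.57%, median 3.17% and highest 4.18% in FVB. The difference was 2.31 points (SE 0.285, limma adjusted p = 3.64e-06), and again only a week 6 PyMT sample lay within the FVB range. Part of the difference lay in the run shown above, which held 11 DMCs over 84 bp, at -1881 to -1798 bp from the inner TSS of the gene (negative is upstream), and which rose from 6.94% ± 4.32 (SD, n = 2) at week 6 to 15.2% ± 4.24 (n = 3) at week 8, 18.2% ± 2.43 (n = 3) at week 10 and 21.05% ± 3.56 (n = 2) at week 12 in PyMT. In FVB it was between 2.72% and 3.50% at each week in the mean of the 3 samples. Other positions of the same window went the other way, since 23 of its 82 positions were lower in the PyMT mean and 53 were higher. Within 500 bp of a TSS its 31 positions averaged 1.77% in PyMT and 0.717% in FVB, and the promoter was also called higher there (0.941 points, limma adjusted p = 0.000506).

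Wnt10b encodes a ligand of the canonical pathway with a role in mammary bud formation. Its promoter was at lowest 2.15%, median 4.45% and highest 5.49% in PyMT and at lowest 1.65%, median 2.06% and highest 3.36% in FVB, a difference of 2.06 points (SE 0.201, limma adjusted p = 2.39e-07). The PyMT samples of weeks 8 to 12 were all above the FVB samples, and 1 of the week 6 samples was not. Its run of 7 DMCs in an intron of the curated transcripts, 865 to 939 bp downstream of the TSS, was at 13.8 to 46.5% in PyMT and at 9.76 to 22.5% in FVB. Within 500 bp of the TSS the 35 positions of Wnt10b averaged 1.08% in PyMT and 0.633% in FVB, a difference of 0.42 points in limma that was not called there (adjusted p = 0.0852).

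Wnt10a, a close relative of Wnt10b that acts in skin and tooth development, was the ligand promoter with the largest fall. Its level was at lowest 8.39%, median 11.7% and highest 13.2% in PyMT and at lowest 13.8%, median 15.6% and highest 18.6% in FVB, and the strains did not overlap. The difference was -4.05 points (SE 0.599, limma adjusted p = 2.86e-05). The fall came from a coding exon 1435 to 1504 bp downstream of the TSS, where the run of 6 DMCs was at 18.1 to 35.6% in PyMT and at 35.4 to 49.0% in FVB. The 12 positions within 500 bp of the TSS went the other way, with 3.08% in PyMT and 2.01% in FVB, and the promoter counted as higher when only they were used (0.967 points, limma adjusted p = 0.00468).

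**Figure D2:**
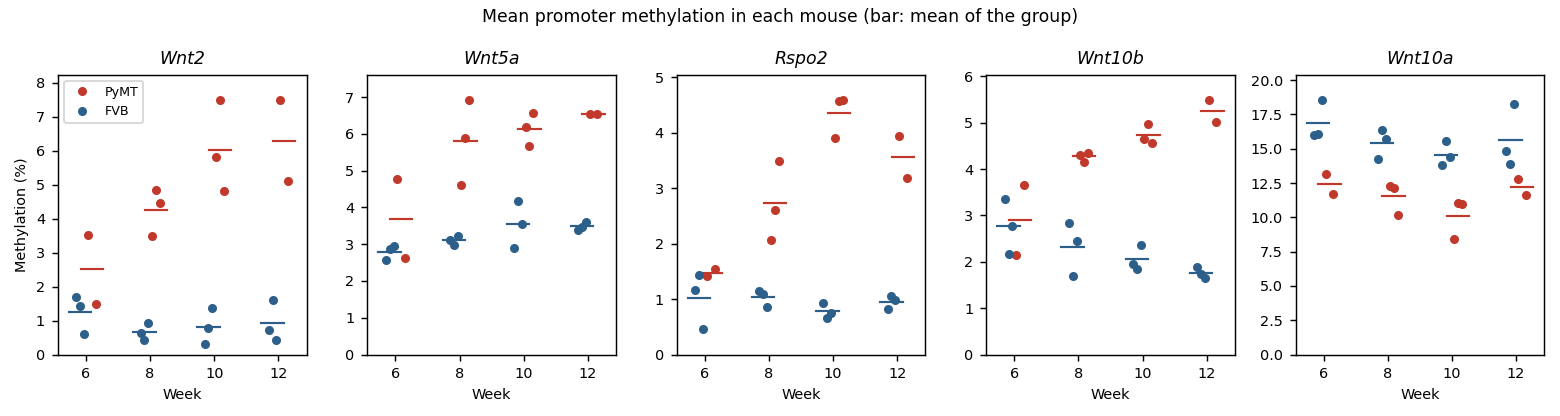
Mean promoter methylation (vertical axis, percent) of Wnt2, Wnt5a, Rspo2, Wnt10b and Wnt10a against week (horizontal axis), 1 point per mouse, red for PyMT and blue for FVB, with a bar at the mean of each group. The PyMT points of the first 4 genes move away from the FVB points after week 6, while those of Wnt10a lie below the FVB points at each week.

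Another run among the ligands lay at Wnt5b, a relative of Wnt5a, with 5 DMCs in an untranslated exon 51 to 133 bp downstream of a TSS. It was at 8.83 to 33.6% in PyMT and at 3.37 to 9.80% in FVB, overlapping only slightly. At Wnt2 the run of 5 DMCs, at -1096 to -1020 bp from the TSS, was at 5.47 to 34.6% in PyMT and at 2.09 to 10.1% in FVB. One CpG of it, at -1068 bp, had the largest difference of the Wnt2 window, with 34.5% in the PyMT mean and 9.61% in the FVB mean.

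Of the 5 receptor promoters, 1 was called. Ror2, a receptor for Wnt5a, was higher in PyMT by 1.67 points (SE 0.143, limma adjusted p = 5.56e-08), at 2.12 to 3.87% in PyMT and 0.97 to 1.93% in FVB with no overlap. It is named here after its values were seen, as are Tcf7l2, Dvl2, Ctnnb1, Lgr6 and Wnt3 in the promoter results. The co-receptors Lrp5 and Lrp6 and the receptors Ror1 and Ryk were at 0.109 to 0.171% in PyMT and 0.147 to 0.357% in FVB and were not called.

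Among the 8 cytoplasmic proteins, Dvl2, an adaptor that takes the signal from the receptor, was higher by 0.687 points (SE 0.218, limma adjusted p = 0.0194), a call that was lost with means weighted by reads and within 500 bp of the TSS. Ctnnb1, which encodes beta-catenin, was lower by 0.511 points, at 0.625% in PyMT and 1.12% in FVB (limma adjusted p = 0.000824), a call that was lost within 500 bp of the TSS. The scaffold proteins Apc and Axin2, the kinases Gsk3a and Gsk3b and the adaptors Dvl1 and Dvl3 were not called, with differences between -0.109 and 0.0249 points.

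Of the 4 nuclear factors, Tcf7l2 and Lef1 were higher, by 1.27 points (SE 0.118) and 0.516 points (SE 0.113), and Tcf7 and Tcf7l1 were not called. Both calls were lost within 500 bp of a TSS, and that of Lef1 also with means weighted by reads. Tcf7l2 was at 3.68 to 4.43% in PyMT and 2.52 to 3.18% in FVB with no overlap. Its run of 6 DMCs lay in an intron, 1356 to 1474 bp downstream of the inner of its 2 TSSs. That run was methylated in both strains, at 72.8 to 88.6% in PyMT and 37.3 to 56.7% in FVB, and it was already at 79.2% ± 1.78 (SD, n = 2) in PyMT at week 6 against 48.2% ± 4.66 (n = 3) in FVB. The rise of the Tcf7l2 promoter mean came largely from this run. Of its 167 positions 7 were DMCs at some week. The 1 outside the run, at -1929 bp, was lower in PyMT (69.5% against 89.9% in FVB). Within 500 bp of the TSSs Tcf7l2 averaged 0.438% in PyMT and 0.235% in FVB.

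In the R-spondin module 5 of 8 promoters were higher (Rspo1, Rspo2, Rspo3, Rspo4 and Lgr5) and 2 were lower (Lgr6 and Znrf3). All 4 R-spondin genes were thus called higher, as they were under each of the same 9 alternatives. For Rspo2, Rspo3 and Rspo4 the 500 bp window gave the same differences as the main fit (2.08, 0.410 and 0.559 points). That alternative was therefore no further test of them. With a minimum difference of 5 points, 0 of the 41 promoters were called over the 4 weeks. Rspo2, an R-spondin that MMTV insertions activate in mouse mammary tumors, was at lowest 1.41%, median 3.34% and highest 4.59% in PyMT and at lowest 0.458%, median 0.961% and highest 1.43% in FVB. Only 1 PyMT sample, of week 6, was below the highest FVB sample. The difference was 2.08 points (SE 0.173, limma adjusted p = 3.81e-08). Its 66 positions all lay within 500 bp of the TSS, 54 of them were higher in the PyMT mean, and the position with the largest difference was at 11.6% in PyMT and 2.47% in FVB, so that Rspo2 showed a low and broad rise with 4 DMCs and no run. Lgr6, an R-spondin receptor that marks stem cells of several epithelia, was lower by 1.42 points (SE 0.261). The calls of Lgr6 and Znrf3 were lost within 500 bp of the TSS.

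The samples of the strains did not overlap for 4 promoters with PyMT above FVB (Ror2, Rspo3, Tcf7l2 and Wnt3), against 4.51% of all promoters, and for 1 with PyMT below FVB (Wnt10a), against 5.35%.

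By week, the number of these promoters called higher was 4 in hyperplasia (background 2.82%), 13 in adenoma/MIN (8.75%), 14 in early carcinoma (11.6%) and 15 in late carcinoma (12.5%). As shares of the 41 these are 9.76%, 31.7%, 34.1% and 36.6%, each above the background of its week. The number called lower was 2 (5.85%), 1 (8.51%), 2 (10.6%) and 1 (9.45%), each a share of 2.44 or 4.88% and below the background. At week 6 those higher were Ror2, Rspo1, Tcf7l2 and Wnt7a, and those lower were Lgr6 and Wnt10a. Without PyMT week 6 replicate 1 the 4 fell to 0, and without FVB week 6 replicate 2 or replicate 3 to 1. Leaving out PyMT week 10 replicate 2 or FVB week 10 replicate 1 took the 14 to 8, and FVB week 10 replicate 3 took it to 9, while the 15 at week 12 fell to 9 without PyMT week 12 replicate 3. The few calls of lower methylation ranged from 0 to 3 at each week when single samples were left out. Without PyMT week 8 replicate 1 the week 8 count of higher promoters was 12, and without FVB week 8 replicate 2 it was 10. The counts over the 4 weeks, 18 and 6, were the same without either sample.

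The study also set the malignant stages, weeks 10 and 12, against the premalignant stages, weeks 6 and 8. In PyMT, 5 promoters rose across this transition (Wnt2, Wnt5a, Wnt10b, Rspo2 and Ror2), against 5.67% of all promoters, and 0 fell, against 0.366%. At an unadjusted p under 0.05 limma had 10 rising and 0 falling. Without PyMT week 6 replicate 2 the 5 fell to 3, and the call of Wnt5a was lost when any of 7 PyMT samples was left out. On the logit scale the calls of Wnt2, Wnt5a, Wnt10b and Ror2 were lost, and those of Wnt5a, Wnt10b and Ror2 also with means weighted by reads. Without PyMT week 8 replicate 1 the count was 4, and without FVB week 8 replicate 2 it was 5. In FVB over the same ages limma called 0 higher (background 0.00%) and 0 lower (background 0.00%), with 2 and 1 at an unadjusted p under 0.05. The transition in PyMT minus that in FVB was called higher for 2 promoters, Rspo2 and Wnt10b, against 2.41% of all promoters, and lower for 0, against 0.122%, with 5 and 1 at an unadjusted p under 0.05. Without either of these week 8 samples the 2 calls were unchanged in number. For Wnt2 it was 2.87 points and missed the threshold (limma adjusted p = 0.0524).

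The Rspo2 promoter was at 1.41% and 1.54% in PyMT at week 6, at 2.07%, 2.61% and 3.49% at week 8, at 3.91%, 4.56% and 4.59% at week 10 and at 3.93% and 3.19% at week 12. In FVB it was at 0.458 to 1.43% at week 6, 0.862 to 1.15% at week 8, 0.656 to 0.937% at week 10 and 0.819 to 1.05% at week 12. The malignant PyMT samples all exceeded the FVB samples, while week 8 replicate 3 of PyMT lay among the malignant ones. The transition was 2.01 points larger in PyMT than in FVB (SE 0.346, limma adjusted p = 0.00373).

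The Wnt10b promoter was at 2.15% and 3.65% in PyMT at week 6, at 4.31%, 4.16% and 4.35% at week 8, at 4.65%, 4.97% and 4.56% at week 10 and at 5.49% and 5.02% at week 12. In FVB it was at 2.16 to 3.36% at week 6, 1.70 to 2.84% at week 8, 1.85 to 2.35% at week 10 and 1.65 to 1.89% at week 12. The malignant PyMT samples were above all premalignant ones, and the FVB means fell from 2.76% at week 6 to 1.76% at week 12 (unadjusted p = 0.0289 for the FVB transition, which limma did not call). The transition was 2.05 points larger in PyMT than in FVB (SE 0.401, limma adjusted p = 0.00944). Both calls were lost on a logit scale, with adjusted p of 0.0574 for Rspo2 and 0.0559 for Wnt10b. That of Wnt10b was also lost with means weighted by reads (2.03 points, limma adjusted p = 0.133) and within 500 bp of the TSS (0.311 points, limma adjusted p = 0.843).

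**Figure D3:**
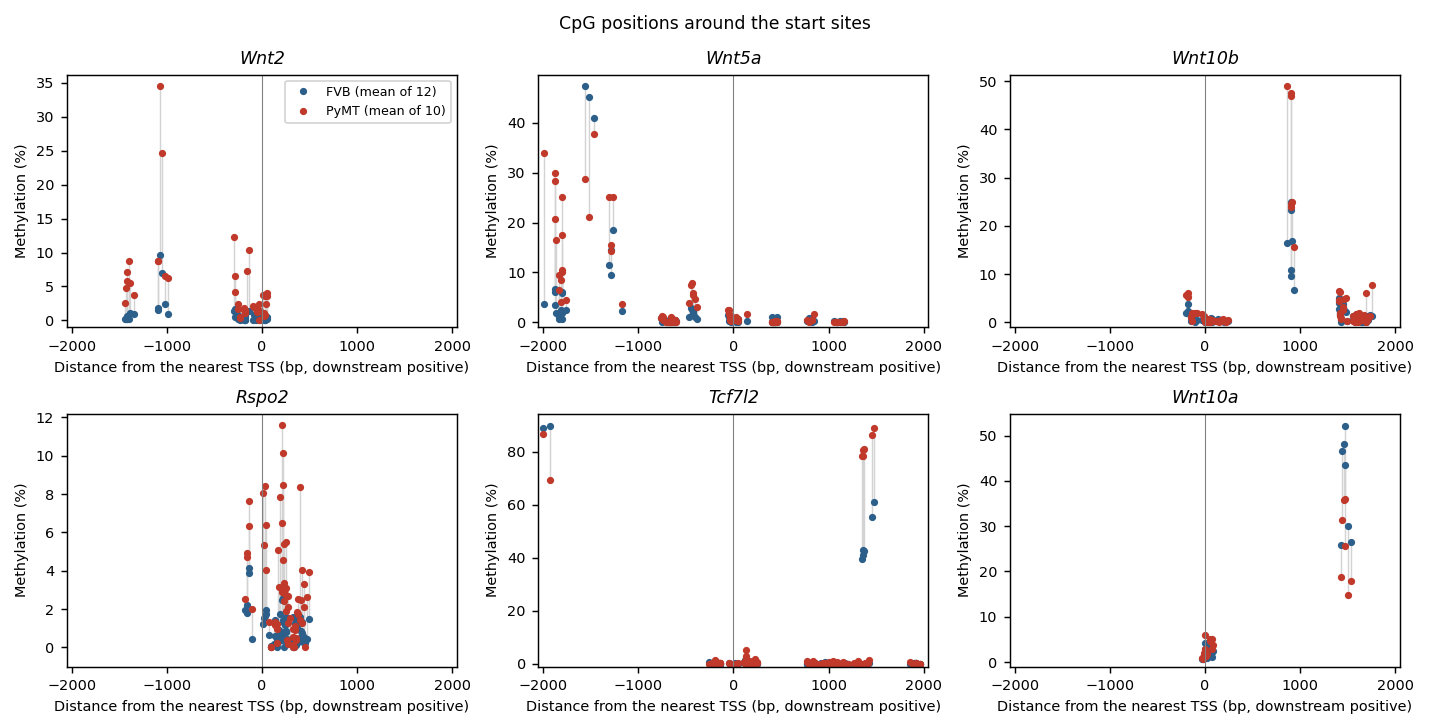
Methylation of single CpG positions (vertical axis, percent) against the distance from the nearest TSS (horizontal axis, bp, downstream positive) in 6 promoters, blue for the mean of the 12 FVB samples and red for the mean of the 10 PyMT samples, joined by a line. Outside Rspo2 the largest difference of each gene lies 865 bp or more from the TSS, such as 48.9% against 16.4% at 1 Wnt10b position, while positions beside the TSS stay low.

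Single positions were then tested by logistic regression of methylated and unmethylated reads, which takes reads and not mice as the unit. Of the 3760 promoter positions, 24 were hypermethylated DMCs at week 6 (0.638%, background 0.887%), 38 at week 8 (1.01%, background 1.15%), 55 at week 10 (1.46%, background 1.91%) and 57 at week 12 (1.52%, background 2.29%). Hypomethylated DMCs numbered 15 (0.399%, background 1.13%), 20 (0.532%, background 1.37%), 21 (0.559%, background 1.46%) and 16 (0.426%, background 1.34%). Without PyMT week 8 replicate 1 the week 8 counts were 43 hypermethylated and 13 hypomethylated, without FVB week 8 replicate 2 they were 35 and 12, and without PyMT week 8 replicate 3 the hypomethylated ones were 11. Without PyMT week 6 replicate 2 the 24 hypermethylated positions of week 6 became 37. The shares over all samples were below those of all promoter positions in both directions and at each week, whereas the share of promoters that limma called higher was above its background at each week. Of the 41 promoters, 21 held a DMC at some week (51.2%), against 45.6% of all promoters tested, and 20 held none. These shares are not alike, since the 41 held a median of 80 positions against 38 over all promoters. A promoter with more positions can more easily hold a DMC. The 96 hypermethylated positions include 9 that were DMCs at all 4 weeks, in Tcf7, Tcf7l2, Wnt10b and Wnt5a. The same share over all promoter positions is not given here.

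The mean differences were larger beyond 1000 bp from the TSS, in bins with few positions. Among the Wnt genes the mean difference over the 4 weeks was 0.300 points in the 2834 positions within 500 bp, 0.413 points in the 526 at 500 to 1000 bp, 1.03 points in the 245 at 1000 to 1500 bp and 0.957 points in the 155 beyond. Over all genes the same bins had 0.222, 0.135, -0.452 and -0.795 points. Levels in FVB also differed in these bins, at 0.618%, 1.27%, 8.67% and 4.35% for the Wnt genes and 2.004%, 4.93%, 12.8% and 20.3% for all genes. Positions share genes and reads, so these means are descriptions without a test.

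Gene bodies of these genes were mostly lower in PyMT. Of 41 bodies with at least 3 positions, 22 were lower (background 46.3%) and 5 were higher (background 19.7%), shares of 53.7% and 12.2%. The share called lower was thus somewhat above the background and the share called higher somewhat below it, and neither gap was tested. The median difference was -2.53 points, against -1.67 points over all 11696 bodies tested. Gsk3a, Rspo2 and Wnt16 had no body position covered in every sample and Rspo3 had 2. The body of Wnt9b holds 57 positions that are also promoter positions of its neighbour Wnt3, of 115 in all, because its gene span reaches upstream of its only curated TSS. Without PyMT week 8 replicate 1 the counts were 24 lower and 6 higher, and without FVB week 8 replicate 2 they were 22 and 5.

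By role, 11 of 18 ligand bodies were lower and 1, Wnt5a, was higher. Of 5 receptor bodies 4 were lower and 1, Ryk, was higher, while of 7 cytoplasmic ones 2 were higher (Axin2 and Dvl2) and 0 were lower. Of 4 nuclear factors 3 were lower, and of 7 bodies in the R-spondin module 4 were lower and 1, Lgr6, was higher. The bodies not overlapping between strains were 10 with PyMT below FVB (background 19.4%) and 4 with PyMT above (background 4.80%).

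The body of Rspo4, an R-spondin with a role in nail growth, was at lowest 31.6%, median 37.9% and highest 46.2% in PyMT and at lowest 51.4%, median 64.2% and highest 70.2% in FVB, a difference of -23.9 points (SE 1.90, limma adjusted p = 8.12e-09) without overlap. It rests on 5 positions at a mean coverage of 39.4 reads. The body of Wnt2 was at lowest 32.8%, median 41.2% and highest 64.7% in PyMT and at lowest 59.9%, median 66.9% and highest 77.0% in FVB, a difference of -23.7 points (SE 2.90), over 8 positions, with overlap through 1 week 6 sample. Its promoter had moved the other way.

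Wnt9a, a ligand with a role in joint formation, fell by 21.04 points (SE 1.45) over 33 body positions. It was at lowest 48.5%, median 51.7% and highest 55.8% in PyMT and at lowest 66.5%, median 73.2% and highest 80.2% in FVB, with no overlap. An intronic run of 11 DMCs at chr11:59312527-59312722 was at 11.2 to 21.3% in PyMT and at 48.3 to 75.0% in FVB, and all 11 positions were DMCs at each week. Its promoter was not called, with a difference of 0.0822 points.

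Lgr6 had the largest rise among the bodies, 16.1 points (SE 0.841, limma adjusted p = 8.53e-11) over 88 positions. It was at lowest 68.9%, median 71.2% and highest 75.5% in PyMT and at lowest 53.3%, median 55.9% and highest 58.3% in FVB. Its run with the most DMCs, 15 in a coding exon shown above, was at 63.2 to 82.0% in PyMT and 18.1 to 33.5% in FVB. At week 6 it was already at 70.3% ± 7.60 (SD, n = 2) in PyMT against 31.2% ± 2.01 (n = 3) in FVB. Within the same gene an intronic run of 8 DMCs at chr1:135098544-135098606 went the other way, at 10.6 to 25.5% in PyMT and 41.3 to 66.9% in FVB. This run, like the Wnt9a one, was named after its values were seen.

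The body of Wnt5a rose by 11.5 points (SE 1.57), at lowest 54.6%, median 63.2% and highest 70.1% in PyMT and lowest 41.9%, median 52.4% and highest 57.1% in FVB. The ranges overlapped through 1 PyMT sample of week 6. The run of 14 DMCs in its coding exon was highly methylated in both strains, at 75.7 to 86.8% and 61.9 to 81.0%. Another body run, of 6 DMCs, lay at -2072 to -2035 bp from the inner TSS, just outside the promoter window. It was at 18.6 to 56.5% in PyMT and 0.629 to 15.2% in FVB. With Dvl2, Wnt5a was 1 of 2 genes called higher in both promoter and body. For Wnt5a these regions were not wholly separate, since this body run lies close to the promoter run. Its part in the body rise was not tested.

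The body of Wnt10b was at 14.2% and 10.7% in PyMT at week 6, at 17.0%, 16.6% and 12.0% at week 8, at 14.8%, 20.96% and 11.7% at week 10 and at 23.5% and 29.4% at week 12, and at 24.96 to 33.3% in the 12 FVB samples. Over the 4 weeks the difference was -12.2 points (SE 1.24, limma adjusted p = 1.60e-07), from -16.1 points (SE 2.61) at week 6 to -5.38 points (SE 2.61, limma adjusted p = 0.101) at week 12. The transition differed from that of FVB by 5.41 points, which was not called (limma adjusted p = 0.302). In the run shown above 14 positions lay in a coding exon and 1 in an intron. Of these, 15 were hypomethylated DMCs at week 6, 11 at both of weeks 8 and 10 and 1 at week 12. The run counts 14 DMCs, since 1 position was also a hypermethylated DMC at another week. The run was at 17.1% ± 3.09 (SD, n = 2) at week 6 and 42.1% ± 7.39 (n = 2) at week 12 in PyMT, against 41.0% and 43.6% in the FVB means.

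Of the remaining bodies named by size, Lrp6, a Wnt co-receptor, fell by 13.1 points (SE 1.24) over 11 positions, at 36.0 to 45.7% in PyMT and 48.8 to 58.4% in FVB. At a coverage of at least 20 reads its difference was -3.53 points and was not called (limma adjusted p = 0.0881). Rnf43, which removes Frizzled receptors from the membrane, fell by 11.8 points (SE 0.983), at 43.5 to 49.7% and 54.8 to 61.7%. Ror1, a receptor tyrosine kinase-like protein, fell by 9.90 points (SE 0.781), at 52.6 to 57.0% and 60.8 to 69.6%. In Lrp6, Rnf43 and Ror1 the strains did not overlap. Wnt8a fell by 9.44 points (SE 1.75) over 8 positions, at 12.9 to 24.5% and 22.5 to 36.6%, with overlap.

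**Figure D4:**
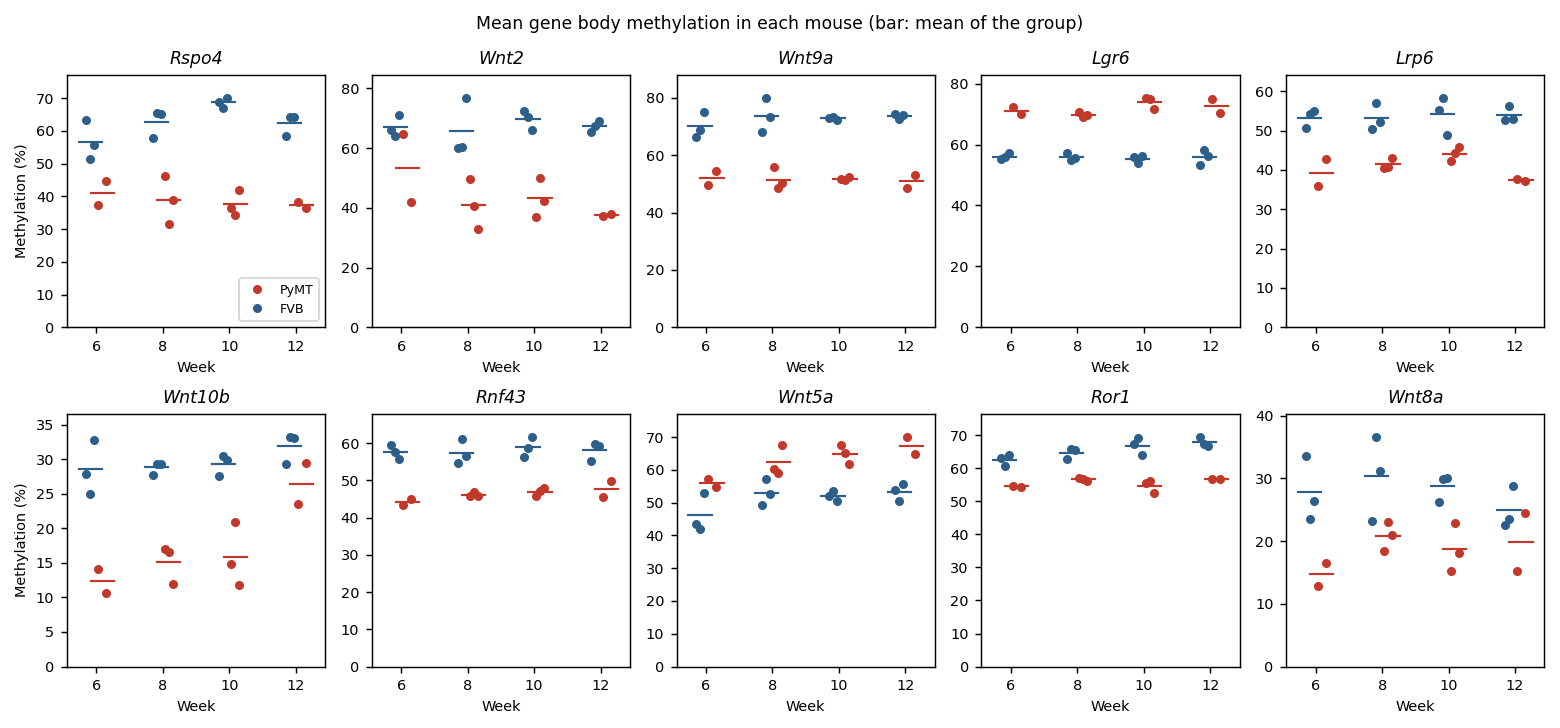
Mean gene body methylation (vertical axis, percent) of the 10 genes with the largest differences against week (horizontal axis), 1 point per mouse, red for PyMT and blue for FVB, with a bar at the mean of each group. Lgr6 and Wnt5a lie higher in PyMT and the other 8 lower, and the PyMT points of Wnt10b approach the FVB points at week 12.

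Among single body positions of the Wnt genes, 135 of 1862 were hypermethylated DMCs at week 6 (7.25%, background 5.82%), 145 at week 8 (7.79%, background 7.14%), 194 at week 10 (10.4%, background 9.08%) and 184 at week 12 (9.88%, background 8.71%). Hypomethylated DMCs numbered 252 (13.5%, background 12.1%), 257 (13.8%, background 13.8%), 330 (17.7%, background 16.3%) and 278 (14.9%, background 16.2%). These shares were near those of all gene body positions. Of the 298 body positions hypermethylated at some week 74 were DMCs at all 4 weeks, and of the 441 hypomethylated ones 150 were. Runs of at least 6 body DMCs numbered 14 for hypermethylation, in 9 genes, and 16 for hypomethylation, in 14 genes. The counts of persistent positions and of runs were not set against all gene body positions. They therefore do not show how these genes compare with others.

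For the transition in PyMT minus that in FVB, limma called 0 bodies higher (background 0.607%) and 0 lower (background 0.727%), with 3 and 5 at an unadjusted p under 0.05.

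Promoter and body could be compared in 38 genes. In 11 of them, 28.9%, the promoter was higher and the body lower in PyMT (Lef1, Lgr5, Ror2, Rspo4, Wnt10b, Wnt2, Wnt3a, Wnt4, Wnt5b, Wnt7a and Wnt7b), against 11.2% of the 9376 genes with both. Lgr6 alone was lower in its promoter and higher in its body, and Wnt11 alone was lower in both. Promoters called higher were more frequent in these genes, so part of the 28.9% follows from that. A higher promoter with a body not called was also more frequent, at 7.89% against 4.79%, and one with a higher body was at 5.26% against 4.06%. Promoter and body values come from the same samples, so these shares are descriptions.

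**Figure D5:**
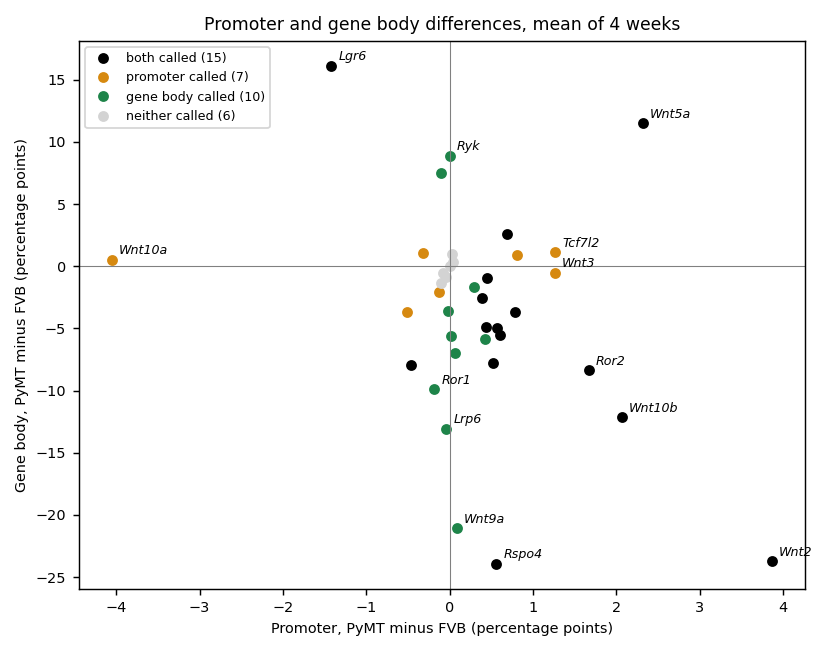
Difference in gene body methylation (vertical axis) against difference in promoter methylation (horizontal axis), both PyMT minus FVB over the 4 weeks in percentage points, for the 38 genes with both, colored by which test called them. Wnt2 and Wnt10b lie at the lower right, with a higher promoter and a lower body, Wnt5a at the upper right and Lgr6 at the upper left.

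Other genes of the pathway were taken from lists. Of 10 Frizzled receptor promoters, 5 were higher and 3 lower, with Fzd2 higher by 26.7 points (SE 1.16) and Fzd5 by 4.24 points (SE 0.212). Of 10 promoters of secreted antagonists, 7 were higher and 0 lower, with Dkk3 higher by 21.8 points (SE 0.861) and Sfrp5 by 2.37 points (SE 0.417). Of 20 promoters of secretion and intracellular modulators, 1 was higher and 1 lower, and of 4 feedback and target genes 1, Sp5, was higher by 0.661 points (SE 0.136). By size alone, Fzd2, Dkk3 and Fzd5 differed by more points than any of the 41 Wnt gene promoters.

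Coverage moved with strain on chromosome 11, where 9 of the 45 genes lie. Relative to all positions, reads there were 1.001, 1.03, 1.03 and 1.08 times the FVB level in PyMT at weeks 6, 8, 10 and 12, and at the promoters of these genes on that chromosome 1.002, 1.04, 1.005 and 1.06 times. The promoters of these genes on all chromosomes together had 1.003, 1.04, 1.01 and 1.02 times, so at weeks 6 to 10 those on chromosome 11 were much alike. Of the genes on chromosome 11 only Wnt3, Wnt3a and Dvl2 had a promoter called higher and Znrf3 one called lower. Whether coverage had a part in their values was not tested.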

How the data were processed

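Per the labels, genomic DNA of snap-frozen mammary tissue was measured by ERRBS. Alignment by the authors was to mm10 with Bismark (version not given in the sources used here), and they kept positions with at least 10 reads and removed 2 outlier samples. The deposited values are the raw count of reads (coverage) at every such cytosine, strands apart, and the methylated and unmethylated percent of that coverage. Methylated counts were recovered as coverage times percent. Groups came from the sample titles. The members and lists were chosen with earlier results of these data known.

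Positions covered in all 22 samples were assigned to the TSSs of curated RefSeq transcripts of GRCm38.p6 (promoters: 2 kb on each side). Mean percent per gene and sample, for genes with at least 3 positions, was tested with limma 3.58.1 in R 4.3.3 (8 groups of strain and week, moderated with trend, Benjamini-Hochberg over all genes, adjusted p under 0.05). Position tests (logistic likelihood ratio, Benjamini-Hochberg over all positions, q under 0.01 and at least 10 points) used Python 3.11.15 with SciPy 1.17.1, NumPy 2.4.6 and pandas 2.3.3, and figures matplotlib 3.10.9. The labels number the samples of a group, so limma p-values measure the spread between these samples, and reads without molecular identifiers are not independent molecules.

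Promoters were named in full at an adjusted p under 0.05 and a difference of at least 2 points, gene bodies likewise to at most 10 by size, runs from 5 promoter DMCs on, and of each further list at most 2 genes by size. Tested on simulated data with 100 genes changed by each size, limma recovered 79% of 2-point and 89% of 5-point promoter changes over the 4 weeks, with 7.69% of its calls on unchanged genes, and 9% and 55% of those of gene bodies, with 4.48%. The logistic test recovered 91.2% of 20-point changes in 100000 simulated positions of the week 10 comparison. Those simulated reads held no spread between the mice of a group, so the figure need not hold for the real samples. The limma simulation changed few genes, while 17.0% of real promoters were called higher and 17.0% lower. The Benjamini-Hochberg cutoff depends on that share, so the limma rates need not hold for the real samples either. Alternatives were the logit scale, means weighted by reads, a coverage minimum of 20 reads, merged strands, at least 10 positions per gene, no trend, the replicate block, a 5-point minimum, a 500 bp window, predicted transcripts, each sample left out and, for positions, overdispersion, stratification, a 25-point minimum and other sets of positions.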

Additional observations from a re-analysis of the deposited data

Results flagged for a closer look

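The change from weeks 6 and 8 to weeks 10 and 12 differed between PyMT and FVB at 2 of the 41 promoters, by the test of that difference itself. At Rspo2 the change in PyMT exceeded that in FVB by 2.01 points (SE 0.346, limma adjusted p = 0.00373). At Wnt10b it did so by 2.05 points (SE 0.401, limma adjusted p = 0.00944). Both calls were lost on the logit scale (limma adjusted p of 0.0574 and 0.0559), and that of Wnt10b also with means weighted by reads (adjusted p = 0.133) and within 500 bp of the TSS (adjusted p = 0.843). No group held more than 3 samples, so no single sample of a group was tested as standing apart from the others.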

How the results depend on the processing

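Of the counts under the alternatives, 454 were within 1.5 times the reported count and 82 were not. Of the tested values of genes named by the rule, 629 kept their direction and call, 26 kept the direction and lost the call, and 2 turned. Outside that rule Wnt6 and Wnt11 also turned within 500 bp, Wnt6 only to 0.00262 points. The cause of these changes was not tested unless named. Within 500 bp of a TSS, where fewer positions enter, Wnt10a was higher by 0.967 points (adjusted p = 0.00468) and the PyMT transition of Wnt5a was -0.0437 points (adjusted p = 0.993). In that window the promoters called over the 4 weeks were 14 higher and 0 lower, and those called at week 6 were 0 and 0. At week 8 they were 7 higher and 0 lower, at week 10 they were 7 and 0, and at week 12 they were 5 and 0. The transition difference was called for 1. The 14 include Wnt10a and Wnt11, called lower in the 2 kb window, and a promoter that was not called in the 2 kb window. The 14 leave out Dvl2, Lef1, Tcf7l2, Wnt3a, Wnt4, Wnt7b and Wnt10b, whose calls were lost. Shares over all promoters in the 500 bp window are not given here, so these counts have no background. With a minimum of 5 points, 0 promoters were called over the 4 weeks in either direction, at weeks 6 and 8, for the PyMT transition and for the transition difference, and 1 higher and 0 lower at weeks 10 and 12.

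With means weighted by reads the counts were 0 higher and 1 lower at week 6, 0 lower at week 8, 1 lower at week 10, 2 lower at week 12, 2 for the PyMT transition and 1 for the transition difference. On the logit scale they were 1 lower at week 6, 1 for the PyMT transition and 0 for the transition difference. With predicted transcripts added, 4 promoters were lower at each of weeks 8, 10 and 12. Lrp6 lost its gene body call at a coverage of at least 20 reads (-3.53 points, adjusted p = 0.0881).

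For promoter DMCs, a minimum of 25 points left 5, 10, 18 and 23 hypermethylated and 3, 3, 7 and 8 hypomethylated at weeks 6, 8, 10 and 12. The overdispersion correction left 12, 14 and 32 hypermethylated at weeks 6, 8 and 10 and 7, 3, 13 and 8 hypomethylated at the 4 weeks. Requiring groups that do not overlap left 8 hypomethylated at week 8.

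With each sample left out in turn, the promoters called over the 4 weeks were 18 to 18 higher and 4 to 6 lower. Those called higher were 0 to 5 at week 6, 9 to 14 at week 8, 8 to 14 at week 10 and 9 to 15 at week 12, and those lower 0 to 3, 0 to 1, 1 to 3 and 0 to 2. The PyMT transition had 3 to 6, the transition difference 2 to 3, and gene bodies 5 to 6 higher and 22 to 24 lower. Hypermethylated promoter DMCs were 21 to 37, 35 to 43, 45 to 59 and 54 to 63 at the 4 weeks and hypomethylated ones 10 to 20, 11 to 19, 18 to 22 and 11 to 19. The 37 at week 6 came without PyMT week 6 replicate 2, and at week 8 the 20 fell to 13 without PyMT week 8 replicate 1, to 11 without PyMT week 8 replicate 3 and to 12 without FVB week 8 replicate 2.

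Replicate numbers are shared between PyMT and FVB. Deviations of same-numbered samples correlated at -0.141 to 0.0869 over promoters and -0.0836 to 0.0670 over gene bodies. With so few samples per group, these values cannot decide whether same-numbered samples form pairs. With the replicate number as a block, 18 promoters were higher and 6 lower over the 4 weeks, 1 was lower at week 6, 0 were lower at week 12, 4 rose in the PyMT transition, where Wnt5a was not called (1.49 points, adjusted p = 0.067), and 2 had a transition difference.

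Levels near 0 limit what a mean over a promoter can show: a change in few of its positions moves it little.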
